A study of Mus musculus with 6 samples.

Results

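The genes of the transforming growth factor beta (TGF-beta) and bone morphogenetic protein (BMP) pathway were examined in bulk RNA of mDCT15 cells, an immortalized mouse line derived from the distal convoluted tubule of the kidney. Members were taken by gene symbol: the TGF-beta, BMP, growth differentiation factor (GDF) and activin ligands, their receptors, the SMAD proteins, the antagonists and the first targets. Of 75 genes named for these roles, 57 were listed among the 20624 genes of the table, all protein coding. The samples were 3 *Pkd1-/-* and 3 wild type libraries of mDCT15 cells, the *Pkd1-/-* cells having been made by CRISPR/Cas9 editing. *Pkd1* encodes polycystin-1, the protein lost in most autosomal dominant polycystic kidney disease. The sample titles name the edited libraries *Pkd1-/-*, whereas their genotype field reads knockdown. No other treatment was named for either group, both were grown in DMEM/F12 with serum, and whether either line is a single clone is not given in the sources used here.

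TGF-beta family ligands are secreted dimers that bring type II and type I serine/threonine kinase receptors together on the cell surface. The type II receptor activates the type I receptor, which phosphorylates receptor-regulated SMADs. These join SMAD4 and enter the nucleus, where SMAD2 and SMAD3 carry the signals of TGF-beta and activin and SMAD1, SMAD5 and SMAD9 those of the BMPs. In the kidney the BMP branch is known for its part in the development of the nephron and the TGF-beta branch for fibrosis.

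The value reported for each gene is the authors' mean of the normalized read counts over all 6 libraries. One mean covers both genotypes, so it shows that a transcript was measured in the pooled set and cannot show in which genotype. The spread between libraries and the depth of each library are not part of a mean, and no comparison of *Pkd1-/-* with wild type was made here. The 95% intervals below are exact Poisson intervals of the summed normalized counts and cover counting error only. Levels of different genes were compared per length. The mean was divided by the length of the gene's merged exons and scaled to a sum of 1000000 over all genes with a length, which gives the level per length in parts per 1000000 (ppm).

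All genes together had a summed mean of 16746088 normalized counts, of which the 2 highest genes, *Gm26917* and *Gm42418*, held 8.08%. The kidney epithelial markers *Pax8*, *Cdh16* and *Pax2* had means of 4905, 4680 and 2428 normalized counts, and 6 of 9 such markers reached 100. The others of this list fell short, with *Krt8* at 0.98 and *Cdh1* and *Krt18* not listed. Of 10 markers of the distal convoluted tubule 4 were listed, with *Wnk4* highest at 413, and the sodium chloride cotransporter *Slc12a3*, which defines the segment, was not listed in the table used here. The proximal tubule genes *Aqp1* and *Lrp2* had means of 11355 and 8826, whereas *Slc34a1*, the third read for that segment, had 2.04. Of other cells, *Pecam1* of endothelium was at 4.68, *Ptprc* and *Cd68* of leukocytes were at 5.36 and 41.9, and the 4 fibroblast markers ran from 2.44 to 201 (*Col1a1*), while the markers read for thick ascending limb, collecting duct and podocytes were not listed. *Pkd1* itself had a mean of 3175, which pools edited and unedited cells and is no check of the edit.

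Most of the pathway was measured in these cells. The median mean over the 57 members was 695 normalized counts, against 104.5 over all genes and 474 over the 13862 protein coding genes. A mean of at least 10, the minimum taken here for a detected gene, was reached by 50 members (87.7%), against 66.5% of all genes and 85.3% of protein coding genes. At a mean of at least 100 stood 40 members (70.2%), against 50.3% of all genes and 72.9% of protein coding genes. At a mean of at least 1000 stood 20 members (35.1%), against 20.9% and 31.0%. Per length, the members had a median of 40.5 ppm, against 9.93 over all genes and 25.2 over protein coding genes, and 33 members lay above the latter. The members thus lay above the table as a whole and closer to the protein coding genes. Together they held 0.446% of the summed mean, and *Fstl1* alone made up 29.2% of the members' sum.

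**Figure D1:**
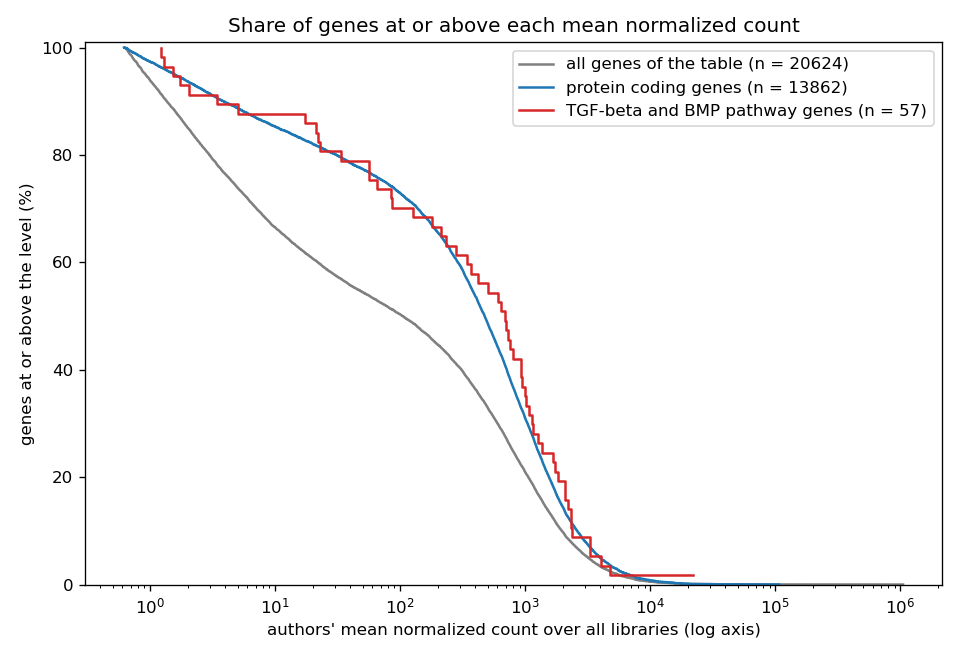
Share of genes (%, vertical axis) whose mean normalized count over all 6 libraries is at or above the value on the horizontal log axis, for all 20624 genes, the 13862 protein coding genes and the 57 pathway genes. The pathway line runs above the line of all genes and close to that of the protein coding genes.

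**Figure D2:**
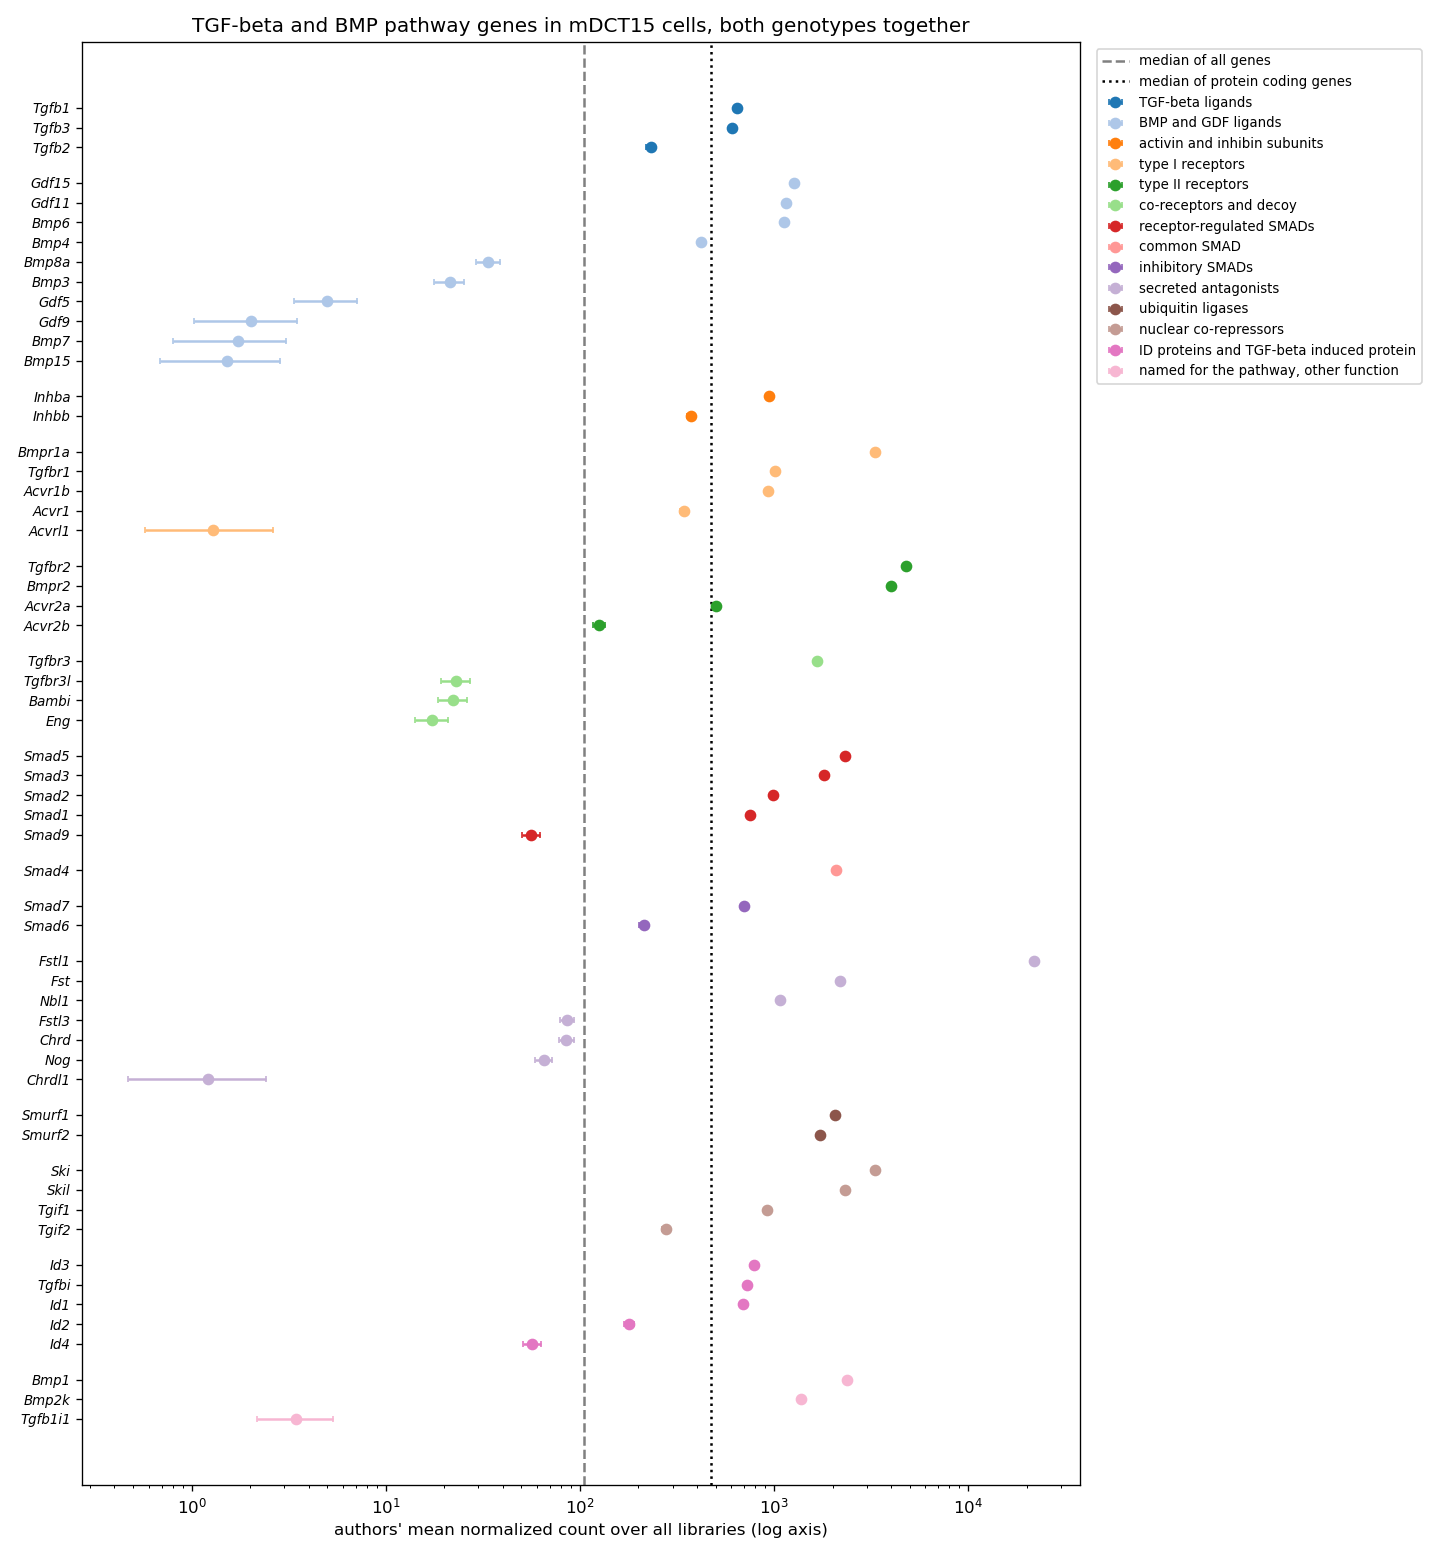
The authors' mean normalized count of each of the 57 genes over all 6 libraries (horizontal log axis), grouped by role, with bars for the 95% Poisson interval of the counting error and lines at the medians of all genes (dashed) and of protein coding genes (dotted). Bars are visible only at low means, *Fstl1* lies far to the right at 21836, and 6 genes lie under 5.

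Promoter sequences are shown for 4 members to let levels be read beside base composition. With merged exons as length, *Ski* and *Gdf15* had almost the same level, 190.5 and 195.1 ppm. With the longest transcript as length they stood at 139.1 and 167.1 ppm, and their undivided means were 3325 and 1273 normalized counts. They differed widely in the number of CG dinucleotides in their first listed promoters. *Id3* is the leading direct target by level, and *Bmp15* is an oocyte ligand that was barely measured. Each sequence is the reference strand of the gene's direction, from 250 bases before to 50 bases after a RefSeq start on build GRCm38.p6, and capitals mark CG dinucleotides. *Ski* lay on chr4:155222486-155222785 (minus strand), *Gdf15* on chr8:70632407-70632706 (minus strand), *Id3* on chr4:136143572-136143871 (plus strand) and *Bmp15* on chrX:6320675-6320974 (minus strand).
Ski: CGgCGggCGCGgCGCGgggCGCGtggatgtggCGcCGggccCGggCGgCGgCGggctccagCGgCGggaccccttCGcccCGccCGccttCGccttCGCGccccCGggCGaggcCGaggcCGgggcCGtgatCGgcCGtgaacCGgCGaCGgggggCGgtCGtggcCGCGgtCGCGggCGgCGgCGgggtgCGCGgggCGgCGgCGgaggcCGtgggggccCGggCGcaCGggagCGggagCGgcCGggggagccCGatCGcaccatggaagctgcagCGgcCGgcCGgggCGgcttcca
Gdf15: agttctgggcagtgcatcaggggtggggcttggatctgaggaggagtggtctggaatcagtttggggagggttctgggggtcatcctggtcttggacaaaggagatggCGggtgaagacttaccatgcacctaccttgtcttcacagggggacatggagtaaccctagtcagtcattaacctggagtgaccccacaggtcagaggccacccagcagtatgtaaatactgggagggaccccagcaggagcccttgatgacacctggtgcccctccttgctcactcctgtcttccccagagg
Id3: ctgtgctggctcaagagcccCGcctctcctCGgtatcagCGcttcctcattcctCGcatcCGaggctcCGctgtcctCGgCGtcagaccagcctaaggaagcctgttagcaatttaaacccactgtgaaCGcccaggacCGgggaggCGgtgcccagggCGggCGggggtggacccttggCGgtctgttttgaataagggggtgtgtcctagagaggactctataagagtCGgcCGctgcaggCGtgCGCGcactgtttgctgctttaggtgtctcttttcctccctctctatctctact
Bmp15: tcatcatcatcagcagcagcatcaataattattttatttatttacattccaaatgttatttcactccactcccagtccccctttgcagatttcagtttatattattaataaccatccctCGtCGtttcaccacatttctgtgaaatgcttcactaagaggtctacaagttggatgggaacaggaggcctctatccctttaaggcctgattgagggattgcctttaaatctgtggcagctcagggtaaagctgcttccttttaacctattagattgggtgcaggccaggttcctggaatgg

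The *Ski* promoter held 59 CG dinucleotides at 85.3% G and C, the highest number among the members, whereas the *Gdf15* promoter held 1 at 57.0%. A second *Gdf15* start in the same table had 7, more than the promoters of *Bmp15* and *Eng*, so the lowest place of *Gdf15* depended on the start taken. The *Id3* promoter held 19 and that of *Bmp15* 2, the latter at 41.7% G and C. Promoters of 39 of the 57 members were found in the RefSeq table, and the first listed start was used where a gene had several. Their median was 27 CG dinucleotides and 67.7% G and C, against 20 and 60.7% over the 11872 genes of the counts table with a promoter there. Split at a mean of 100, the 31 higher genes had a median of 27 and the 8 lower ones of 20.

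Short motifs were then searched on both strands of these promoters. CAGAC, the extended SMAD binding element, was in 17 of 39 (43.6%), against 48.0% over genes of the counts table and 49.6% over all 32851 promoters. GGCGCC, the GC-rich SMAD site, was in 14 (35.9%), against 20.6% and 11.9%. It is itself made of G and C and holds a CG dinucleotide, and the members' promoters were richer in both. Whether the difference in GGCGCC goes with base composition was not tested. TATAAA was in 5 (12.8%), against 7.53% and 13.6%. Of the promoters shown, those of *Gdf15* and *Id3* held CAGAC, that of *Ski* held GGCGCC and that of *Bmp15* held TATAAA. In *Gdf15* the match was only on the strand not printed, where it reads as GTCTG above. The match in *Bmp15* was likewise only on that strand and reads as TTTATA above. Each match gives the presence of these letters in the window and nothing on binding.

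**Figure D3:**
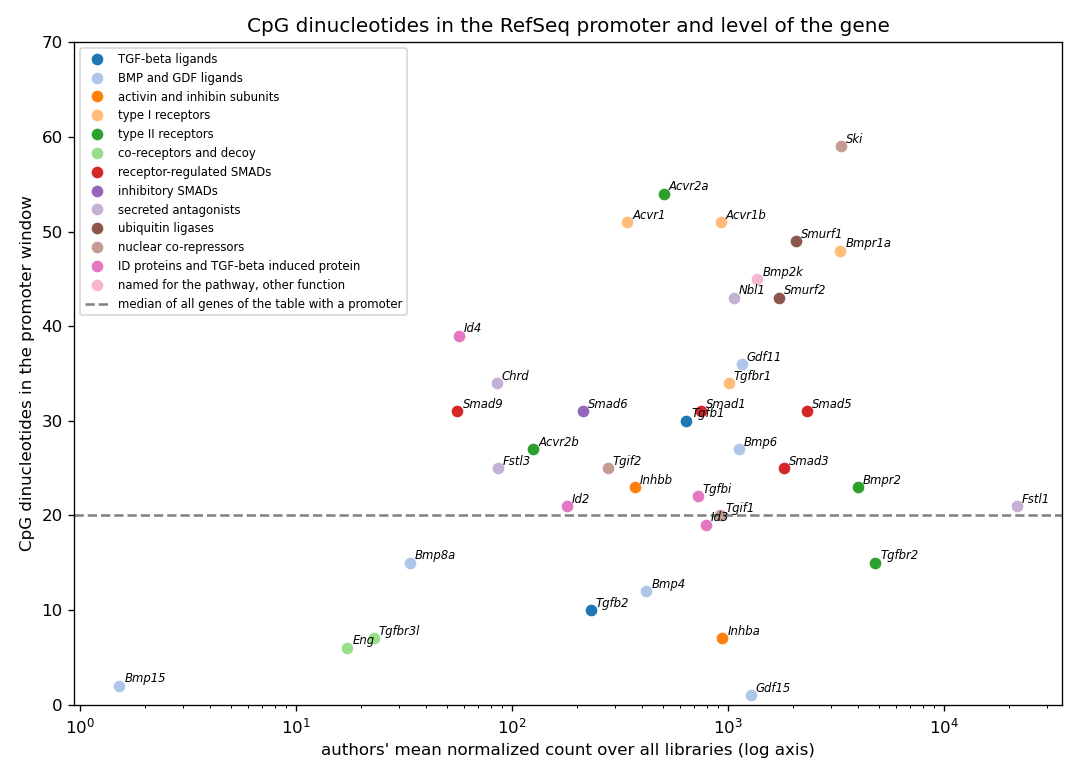
CG dinucleotides in the 300 bases around the start (vertical axis) against the authors' mean normalized count (horizontal log axis) for the 39 members with a RefSeq promoter, with a dashed line at the median of 20 over all genes of the counts table. Members with a mean of at least 100 spread from 1 (*Gdf15*, first listed start) to 59 (*Ski*).

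All 3 TGF-beta ligands were detected at middle levels. *Tgfb1*, the isoform best known for fibrosis, had a mean of 643 normalized counts (623 to 664), *Tgfb3* of 609 (590 to 629) and *Tgfb2* of 232 (220 to 245). Per length, *Tgfb1* and *Tgfb3* stood at 43.9 and 40.5 ppm, a ratio of 1.08, and *Tgfb2* at 12.9. With the longest transcript as length, the ratio of *Tgfb1* to *Tgfb3* was 1.71 (62.9 and 36.7 ppm). *Tgfb1* lies on chromosome 7 from 25386390 to 25404506 (GRCm39, plus strand). The order of *Tgfb1* and *Tgfb3* could not be told from a mean without its spread.

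Of the 10 listed BMP and GDF ligands, 6 reached the minimum mean of 10 and 4 of these reached 100. *Gdf15*, a stress-induced cytokine that acts through a receptor outside the family, led with a mean of 1273 normalized counts (1244 to 1302) and a level of 195.1 ppm. *Bmp6*, known for its control of iron metabolism, followed at 1124 (1098 to 1151) and 99.5 ppm, next to *Gdf11*, a close relative of myostatin, at 1157 (1130 to 1185) and 95.1 ppm. *Bmp4*, a ligand of ureter and kidney development, had a mean of 420 and a level of 27.8 ppm, with 31.1% of its exon bases opposite other genes. The other 6 listed had means from 1.52 to 33.7. *Bmp8a* and *Bmp3* had means of 33.7 and 21.3, and *Gdf5*, a ligand of joint formation, had 5.01 (3.37 to 7.14). Of the exon bases of *Gdf5*, 40.3% lay opposite another gene.

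*Bmp7*, a ligand needed for nephron formation, had a mean of only 1.73 normalized counts (0.799 to 3.07). The oocyte ligands *Gdf9* and *Bmp15* were at 2.03 and 1.52, so that the counting intervals of these 3 genes overlapped. Another 10 ligands of this role, *Bmp2*, *Bmp5*, *Bmp8b*, *Bmp10*, *Gdf1*, *Gdf2*, *Gdf3*, *Gdf6*, *Gdf7* and *Gdf10*, were not listed in the table used here. Of the activin and inhibin subunits, *Inhba* had a mean of 942 (918 to 967) and *Inhbb* of 371 (356 to 387), or 46.0 and 30.0 ppm. Both encode beta chains that pair to form activins, and *Inhbc* was not listed.

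The type I receptors were led by a BMP receptor. *Bmpr1a* had a mean of 3321 normalized counts (3275 to 3368) and 148.5 ppm, *Acvr1b*, the activin type I receptor, 926 and 67.6 ppm, and *Tgfbr1*, the TGF-beta type I receptor, 1012 and 53.0 ppm. *Acvr1*, a further BMP receptor, followed at 343 and 17.8 ppm. *Acvrl1*, the type I receptor of endothelial cells, was near the floor at 1.28 (0.576 to 2.63). The related *Bmpr1b* and *Acvr1c* were not listed in the table used here. *Bmpr1a* lies on chromosome 14 from 34132687 to 34225379 (GRCm39, minus strand).

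All 4 type II receptors were detected. *Tgfbr2*, which binds TGF-beta, had the second highest mean of all members at 4803 normalized counts (4747 to 4858) and 189.5 ppm, and lies on chromosome 9 from 115913361 to 116004800 (GRCm39, minus strand). *Bmpr2*, which binds BMPs, had 4007 (3956 to 4058) but 77.0 ppm, its exons being longer. The activin receptors *Acvr2a* and *Acvr2b* were lower, with 504 and 126 normalized counts, or 17.3 and 3.91 ppm. Of the exon bases of *Acvr2a*, 30.5% lay opposite exons of *Orc4*. The level per length of *Tgfbr2* made up 65.9% of the sum over the type II receptors.

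Among co-receptors, *Tgfbr3* (betaglycan), which presents TGF-beta 2 to its receptors, had a mean of 1671 normalized counts (1639 to 1704) and 84.7 ppm. The other genes of this role were far lower. *Tgfbr3l* had 22.9, and 51.8% of its exon bases overlapped another gene on the same strand, *Gm49320*, so its count was uncertain. *Bambi*, a decoy receptor without a kinase domain, had 22.2 (18.6 to 26.3), and *Eng*, the endothelial co-receptor endoglin, had 17.3 (14.2 to 21.0).

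SMADs of both branches were measured. *Smad3* of the TGF-beta and activin branch had a mean of 1818 normalized counts and 108.8 ppm, and *Smad5* of the BMP branch had 2328 and 104.7 ppm, a ratio of 1.04 per length. *Smad2* and *Smad1* stood next to each other in the same way, at 30.6 and 28.3 ppm with means of 992 and 749. *Smad9*, the remaining BMP-regulated SMAD, was lowest at 56.0 (50.2 to 62.3) and 3.33 ppm. With the longest transcript as length, *Smad1* stood at 48.0 ppm and *Smad2* at 26.0, so their order and distance depended on the length taken. The partner shared by both, *Smad4*, had a mean of 2087 (2050 to 2123) and 99.8 ppm. The inhibitory SMADs, which block receptors and are themselves induced by the pathway, were at 702 and 51.3 ppm for *Smad7* and at 213 and 20.8 ppm for *Smad6*.

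The secreted antagonists held the highest of the 57 members. *Fstl1*, a secreted glycoprotein related to follistatin that binds BMP4, had a mean of 21836 normalized counts (21718 to 21955) and was the gene of rank 20 in the whole table. Its level was 751 ppm, 75.2% of the sum over the antagonists, and it lies on chromosome 16 from 37597105 to 37656876 (GRCm39, plus strand). *Fst*, follistatin, which binds activins, had 2197 (2160 to 2235) and 161.6 ppm, and *Nbl1*, a BMP antagonist of the DAN family, had 1067 and 56.8 ppm. The classical BMP antagonists were low. *Nog* (noggin) had a mean of 65.0 (58.7 to 71.8) and *Chrd* (chordin) of 85.0 (77.8 to 92.7), or 13.3 and 3.58 ppm.

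*Fstl3*, which binds activins and myostatin, had a mean of 86.0 normalized counts and 12.2 ppm, and 47.1% of its exon bases lay opposite exons of *Prss57*. *Chrdl1* was at 1.21 (0.469 to 2.40), the lowest mean of all members. *Grem1*, *Fstl4*, *Fstl5* and *Chrdl2* were not listed in the table used here.

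Negative regulators inside the cell were all detected. The ubiquitin ligases *Smurf1* and *Smurf2*, which mark SMADs and receptors for degradation, had means of 2068 and 1723 normalized counts, or 101.7 and 63.7 ppm. *Ski* and *Skil*, nuclear proteins that bind SMADs and repress transcription, had 3325 (3279 to 3372) and 2317 (2279 to 2356), or 190.5 and 79.6 ppm. The homeobox co-repressors *Tgif1* and *Tgif2* were lower, at 922 and 278, or 54.8 and 12.5 ppm. Of the 42-base windows along the exons of *Tgif2*, 78.5% occurred once in the genome, the lowest share among the members, whose median was 99.7%, and 52.4% of its exon bases lay opposite other genes. *Ski* lies on chromosome 4 from 155238532 to 155307543 (GRCm39, minus strand).

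The inhibitor of differentiation genes are direct targets of BMP-regulated SMADs. *Id3* had a mean of 791 normalized counts (769 to 814) and *Id1* of 695 (674 to 716), or 153.3 and 135.8 ppm, a ratio of 1.13. *Id2* was lower at 180 and 17.9 ppm, with 36.2% of its exon bases opposite other genes, and *Id4* lower still at 56.7 and 4.28 ppm. *Tgfbi*, which encodes a matrix protein named for its induction by TGF-beta, had a mean of 727 and 66.8 ppm. These levels are levels of transcripts, and no measure of SMAD activity was made.

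A further 3 genes were taken by symbol although their products are neither ligands, receptors nor SMADs. *Bmp1*, a protease that processes procollagen and cleaves chordin, had a mean of 2379 normalized counts and 70.7 ppm. *Bmp2k*, a kinase, had 1371 and 42.7 ppm. *Tgfb1i1*, a focal adhesion adaptor, had only 3.44 (2.17 to 5.35).

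**Figure D4:**
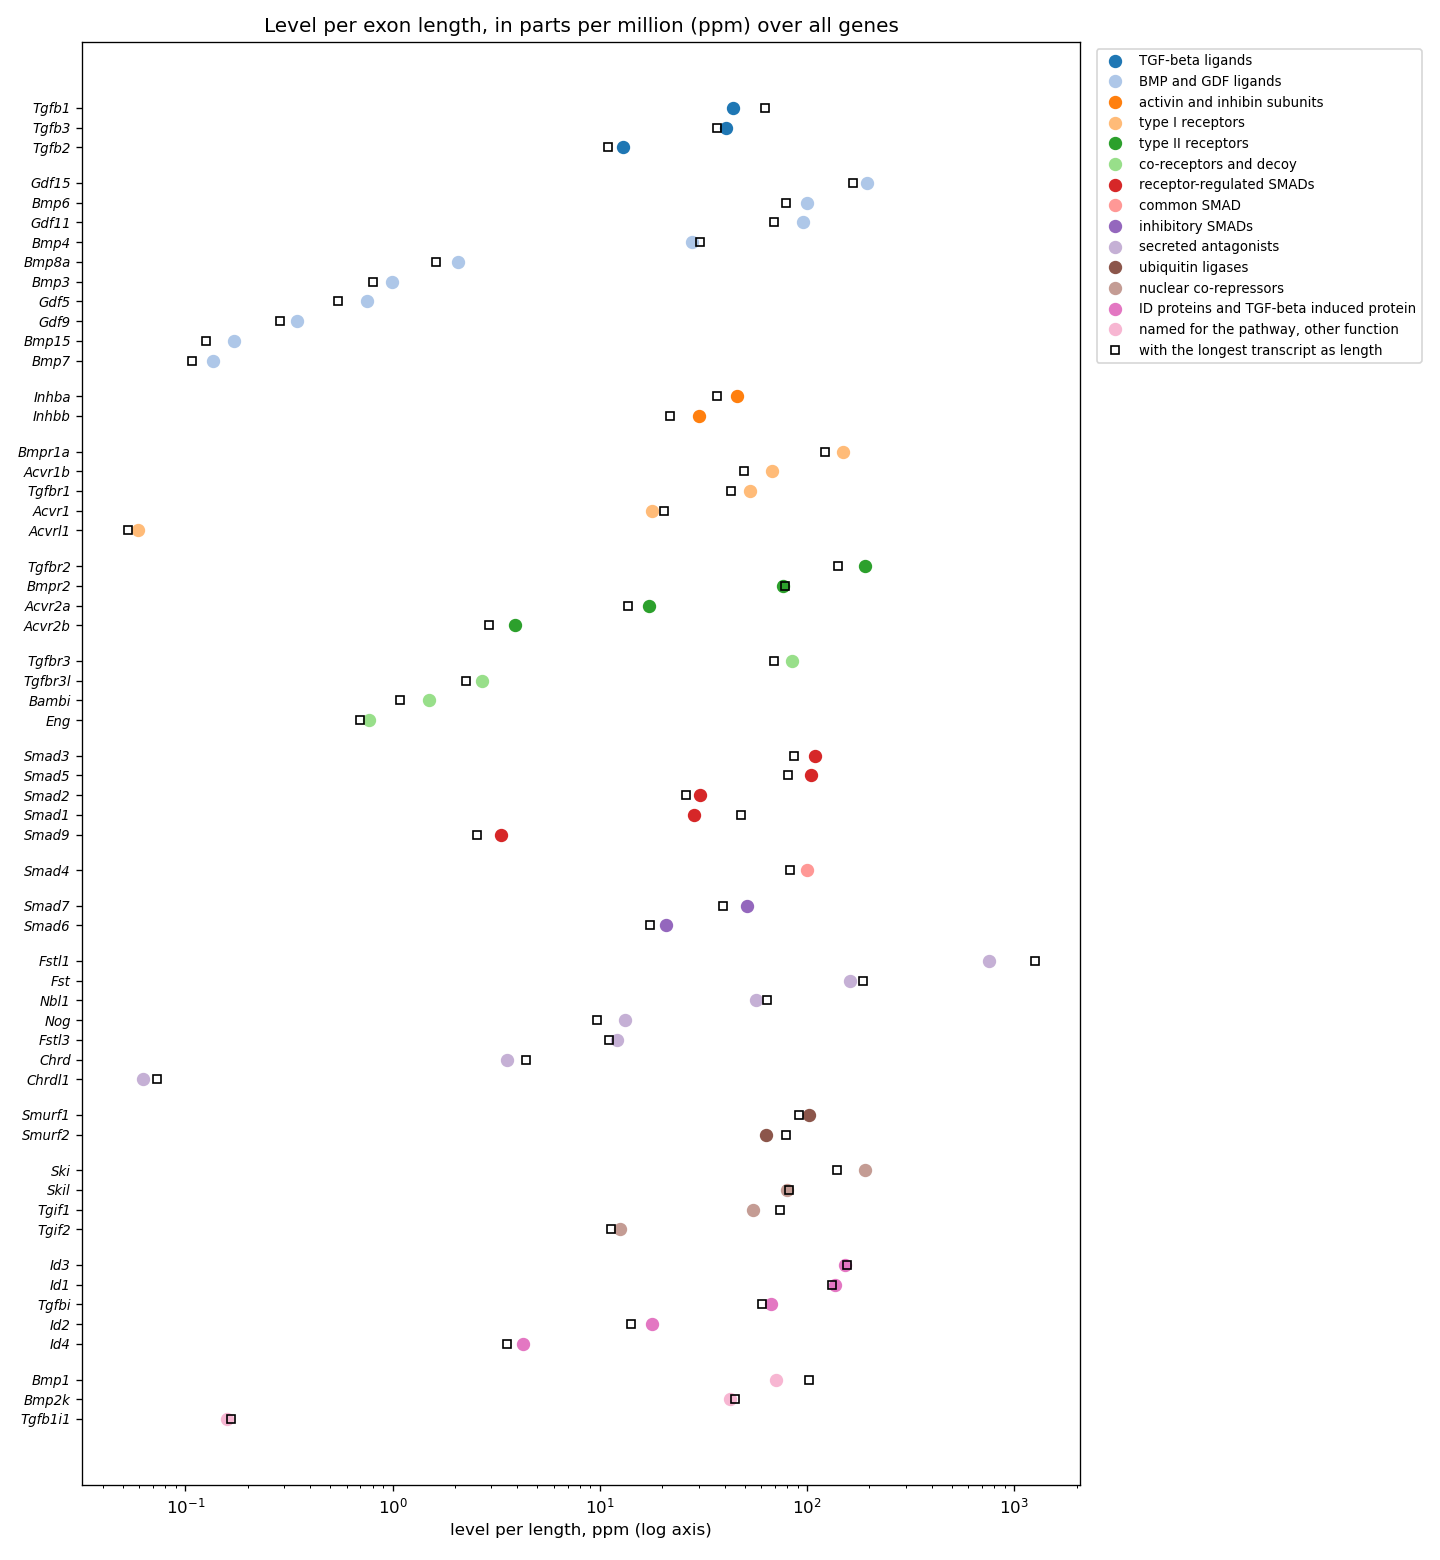
Level per length of each of the 57 genes (ppm, horizontal log axis), with filled points for the merged exons as length and open squares for the longest transcript. *Fstl1* leads with both lengths, and *Smad1* and *Smad2* change order between them.

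Within the 14 roles, 43 pairs of genes were neighbours in the order of level per length. In 10 of these pairs the levels differed by less than 1.5 times, and 2 pairs, *Nog* with *Fstl3* and *Smad2* with *Smad1*, changed order when the longest transcript was taken as the length. Because the spread between libraries is not part of the means, none of these orders was tested. Of the 57 members, 54 had at least 95% of their exon windows occurring once in the genome, the exceptions being *Tgif2*, *Fstl1* (92.9%) and *Bmp2k* (93.1%).

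Pathway genes beyond these symbols were read from a second list of 59, of which 48 were listed. Of these 48, 41 had a mean of at least 10, beside 66.5% of all genes and 85.3% of protein coding genes. Genes of TGF-beta latency and activation were led by *Thbs1* (thrombospondin 1) at 569 ppm and *Ltbp3*, which tethers latent TGF-beta to the matrix, at 165.3 ppm. Their means were 10595 and 4469 normalized counts. Of the 12 genes of this class 10 were listed, and 8 of these reached 100, beside 72.9% of protein coding genes. *Ltbp2* was lower at 61.3. *Pcsk6*, a convertase, was at 8.22, and *Lrrc32* and *Nrros*, which anchor latent TGF-beta on immune cells, were not listed in the table used here. The remaining ligands were low or not listed: *Inha* had a mean of 21.5 and *Amh* of 5.86, and *Nodal*, *Lefty1*, *Lefty2*, *Mstn* and *Inhbe* were not listed.

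Extracellular and membrane modulators were led by *Twsg1*, a BMP-binding protein, at 5393 normalized counts and 357 ppm, and by *Cd109*, a TGF-beta co-receptor, at 1334 and 66.0 ppm. Those under a mean of 10 were *Dcn*, *Bgn* and *Amhr2*, at 6.01, 1.12 and 1.64, and *Sost*, *Cer1* and *Hjv* were not listed. Of 17 genes of signalling inside the cell, 16 had a mean of at least 100, beside 72.9% of protein coding genes. This class was led by *Sp1* at 204 and *Tab2* at 168.6 ppm, and the exception was *Foxh1*, a SMAD partner of early embryos, at 2.68 normalized counts.

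Of 10 known targets, 9 were listed and 7 of these had a mean of at least 100, beside 72.9% of protein coding genes. The highest of those described here were *Fn1* (fibronectin) at 26326 normalized counts and 577 ppm and *Ccn2*, listed under its older symbol *Ctgf*, at 4871 and 530.4 ppm. *Dlx5* was at 2.27, and *Hamp*, the hepcidin target of BMP6 in liver, was not listed in the table used here. *Fn1* and *Fstl1* thus had means of the same order, above every other gene of the pathway named here.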

How the data were processed

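Total RNA of 3 *Pkd1-/-* and 3 wild type libraries was sequenced by the authors as ribosomal RNA-depleted, paired-end reads of 42 bases. The authors trimmed reads with Trim Galore (0.4.5), aligned them with STAR (2.7.5a) to GRCm39 with Ensembl release 105 and counted them per gene with HTSeq (0.11.0) at default parameters. The deposited table holds 1 signal value per gene that was used here, the authors' mean of DESeq2-normalized counts over all 6 libraries. Its 5 other numeric columns hold the authors' own comparison of the genotypes (fold change, its error, a statistic and p-values) and were not used, so the test planned between genotypes was not run.

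Members were matched by symbol, no symbol being repeated. The members, roles and lists were chosen with earlier results of these data known. Genes described are the 3 highest per length in each role, the barely measured ones and the rest by value. Of the other pathway genes, the 2 highest and the undetected of each class are named. Some genes of these lists are not reported here. Lengths and positions came from GENCODE M39 on GRCm39 (20122 genes, 97.6%, matched by identifier), which is later than the annotation the authors counted on, so lengths may differ from theirs. The Poisson interval is that of 6 times the mean, divided by 6, and is approximate for normalized counts. HTSeq leaves out reads of overlapping genes on the counted strand. The strand setting is not given beyond the default. How reads were assigned where exons lie opposite another gene could therefore not be told, and counts of such genes are less certain. Promoters came from a RefSeq table on GRCm38.p6, whose coordinates were not joined to those on GRCm39. Calculations used Python (3.11.15), pandas (2.3.3), numpy (2.4.6) and scipy (1.17.1) and were tested on simulated data.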

Additional observations from a re-analysis of the deposited data

How the results depend on the processing

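In all, 10 alternatives were run for 5 results, and every value stayed within 1.5 times of the one reported. The number of members detected was 57, 51 and 40 at a minimum mean of 1, 5 and 100, against 50 at 10. At 1 and 5 it could not leave that range, because there were only 57 members to detect. The leading member of each role was the same in 14 of 14 roles with the longest transcript as length, and in 13 when the mean was not divided by length, *Smad5* then standing before *Smad3*. The median mean was 669 without *Bmp1*, *Bmp2k* and *Tgfb1i1*, against 695, and did not move when repeated symbols were kept, since there were none. Of the second list, 35 genes reached a minimum mean of 100, against 41 at 10. Chosen after seeing the data, scaling over protein coding genes gave a median level per length of 43.0 ppm and the longest transcript 36.7, against 40.5. For a test between genotypes, 5 further settings (other size factors, no filter on low counts, another test, a replicate block, leaving out each replicate) were not run. No paired analysis was possible because the values used are means over all 6 libraries. Depth limits the genes with a mean under 10, whose counting intervals are wide, and the spread between libraries is unknown for every gene.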

Other observations

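A minimum of 5 counts per gene and sample is stated for the processing, whereas 5385 of the 20624 genes had a mean normalized count under 5, the lowest being 0.618. Among them were 6 members of the pathway, *Tgfb1i1*, *Gdf9*, *Bmp7*, *Bmp15*, *Acvrl1* and *Chrdl1*.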
